A study of Homo sapiens with 5 samples.

Results

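The genes described are 10 that encode subunits of the CCR4-NOT complex: CNOT1, CNOT2, CNOT3, CNOT4, CNOT6, CNOT6L, CNOT7, CNOT8, CNOT10 and CNOT11. They were selected on earlier results of the same measurements, among them the large retention change of a CNOT11 intron after WBP11 loss, so what follows is a description with no test. All introns carrying these gene names in the 3 deposited tables were taken, which gave 30 distinct introns of 34560. Of the 10 genes, 8 had a listed intron. CNOT3 and CNOT7 had none.

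CCR4-NOT shortens the poly(A) tails of messenger RNAs in the cytoplasm, the step that usually opens mRNA decay. CNOT1 is the scaffold, CNOT6, CNOT6L, CNOT7 and CNOT8 are the nuclease subunits, CNOT2 and CNOT3 form a module at one end of the scaffold, and CNOT10 and CNOT11 form a module at the other. An intron that stays in a polyadenylated RNA can hold that RNA in the nucleus or change the protein read from it.

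The RNA was polyA RNA of DLD-1, a human colorectal adenocarcinoma cell line, in 5 libraries with 1 library per group. In the DLD-1 LacZeo line, WBP11 RNAi and SNW1 RNAi cells received 100 nM siRNA for 72 h, and the control has the treatment entry "None", while the file headers name it a control RNAi. WBP11 and SNW1 are both splicing factors. In the DLD-1 LacZeo osTIR1 line, which carries the plant receptor through which auxin directs tagged proteins to degradation, the auxin control and WBP11 auxin cells both received 500 µM auxin for 48 h. The series' design text describes AID-tagged WBP11, made from a transgene in cells whose own WBP11 was knocked out. The sample's own genotype entry reads the same as that of its control. No library of the degron cells without auxin was analysed here, so line and depletion cannot be told apart in that pair. Whether the lines are single clones is not said in the labels.

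There were 16629 introns in the WBP11 RNAi comparison, 24077 in that of SNW1 RNAi and 22471 in the auxin pair, with 2987572 to 5527186 spliced reads per library over the listed introns. A listed intron had no IRFinder warning in at least 1 of its 2 libraries and a retention of at least 1% in at least 1, so an intron without a row is not shown to be unretained. By the same rule, an intron under 1% in its control has a row only where the depleted library is higher. One under 1% in the depleted library has a row only where the control is higher. The direction of such a difference is fixed by the listing. In the 2 RNAi tables the control values were the same at all 13412 introns they share, so both comparisons rest on 1 control library. WBP11 had 20 spliced reads against 312 in the WBP11 RNAi library, and SNW1 had 31 against 401 in the SNW1 RNAi library, over their listed introns. In the auxin pair, where the protein is the target, WBP11 had 103 against 235 at 1 intron. Each table listed introns of 4 of 12 colorectal epithelial marker genes and of 0 of 6 fibroblast, 0 of 5 leukocyte and 0 of 3 endothelial markers. Over their listed introns the epithelial markers had 83485 spliced reads after SNW1 RNAi against 283367 in its control, 39383 against 47896 for WBP11 RNAi and 17824 against 27805 in the auxin pair. The part of this in the results was not tested. Since retention decides which introns have a row, an absent marker was not measured.

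Retention is the intron's read depth over that depth plus the reads spliced at its ends, in percent. A call needed a difference of at least 10 percentage points and, in both libraries, a depth plus spliced reads of at least 10, and "rose" is used for that alone. All listed CCR4-NOT introns met the depth minimum. Intervals are 95% intervals that treat reads as independent molecules and cover counting error only. Since each group is 1 library, replicates could not check any difference.

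The calls among CCR4-NOT introns stand here beside those of all introns in the same tables. After WBP11 RNAi 1 of 13 rose, against 9.07% of the 16068 introns tested, and 0 were lower, against 1.69%. After SNW1 RNAi 0 of 13 were higher, against 16.6% of 23366, and 0 lower, against 0.359%. In the auxin pair 2 of 20 rose, against 13.8% of 21828, and 0 were lower, against 1.37%. Because the genes were chosen with these differences known, nothing is read from the counts.

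The introns on which the results turn are shown first, because both that rose were short. Sequences are from GENCODE release 29 transcripts that read through the intron (GRCh38, plus strand), 5′ to 3′, with intron bases in capitals and exon bases in lower case. CNOT11 intron 6 of 6 lies at chr2:101269137-101269215, is 79 bp long and sits within the coding region of transcript CNOT11-201. Its sequence comes from CNOT11-202, an annotated transcript whose last exon runs across it. CNOT2 intron 13 of 16 lies at chr12:70342169-70342257, is 89 bp long and is shown whole with 3 exon bases on each side. CNOT10 intron 16 of 18, at chr3:32764491-32764681 and 191 bp long, had the largest change among introns that were not called in the auxin pair and is shown for contrast.
CNOT11 intron 6, first 20 bases after 10 exon bases: atatatgcagGTAATATAAATTTTTGTAAA
CNOT11 intron 6, last 27 bases before 3 exon bases: CTAACATTTTTTTTTTTCCTTTTTCAGaat
CNOT2 intron 13, whole: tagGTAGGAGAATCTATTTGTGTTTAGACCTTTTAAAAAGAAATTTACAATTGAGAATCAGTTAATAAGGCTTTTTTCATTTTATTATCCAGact
CNOT10 intron 16, first 20 bases after 10 exon bases: atggaatcctGTAAGTAAGAAGTTTTGTGA
CNOT10 intron 16, last 27 bases before 3 exon bases: ACCAGTGTCTACACTCTTTTTCCCCAGctg

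The first 6 intron bases are GTAATA in CNOT11, GTAGGA in CNOT2 and GTAAGT in CNOT10, and all 3 introns end in CAG. Of the 20 bases before the closing AG, 19 are pyrimidines in CNOT11, 17 in CNOT2 and 17 in CNOT10. The GC content is 25.3% in the CNOT11 intron, 25.8% in the CNOT2 intron and 45.5% in the CNOT10 intron. Read in the frame of the preceding exons, the CNOT11 intron gives a TAA stop at its bases 7 to 9, and the exons before it hold 445 of the 511 codons. CNOT2 intron 13 gives a TAA stop at its bases 60 to 62, and the exons before it complete 413 of 541 codons. The CNOT10 intron gives a TAA stop at its bases 6 to 8. A whole intron sequence was found in transcripts for 4 of the 30 introns, so these features were not compared over the set, and a stop is a description of the sequence alone.

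CNOT11 intron 6 was the CCR4-NOT intron with the largest change. CNOT11 binds the scaffold together with CNOT10. The intron was retained at 5.49% (3.31 to 8.98) in the control, 55.6% (49.1 to 62.0) after WBP11 RNAi and 9.12% (5.74 to 14.2) after SNW1 RNAi. In the other pair it stood at 10.5% (7.23 to 15.1) in the auxin control and 90.9% (84.1 to 95) in WBP11 auxin. Both WBP11-depleted libraries were high, and the intervals of the other 3 libraries overlapped one another.

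The difference at CNOT11 intron 6 was 50.1 points (42.7 to 56.8) for WBP11 RNAi and 80.4 points (72.2 to 85.6) for WBP11 auxin. For SNW1 RNAi it was 3.63 points (-1.22 to 9.14), which is under the call and has an interval that holds 0. Set directly against each other, the WBP11 RNAi library stood 46.5 points (38.3 to 53.7) above the SNW1 RNAi library. The auxin control stood 5.05 points (0.246 to 10.1) above the control of the RNAi pairs, so the 2 WBP11 comparisons start from somewhat different levels. Every base of the intron that was measured had reads in all 5 libraries, and none carried a warning there.

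The intron overlaps an annotated exon, that of CNOT11-202, and the deposited name field marks it so. Reads of that transcript count as retention, in the controls too. The part of CNOT11-202 in the difference was not tested.

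**Figure D1:**
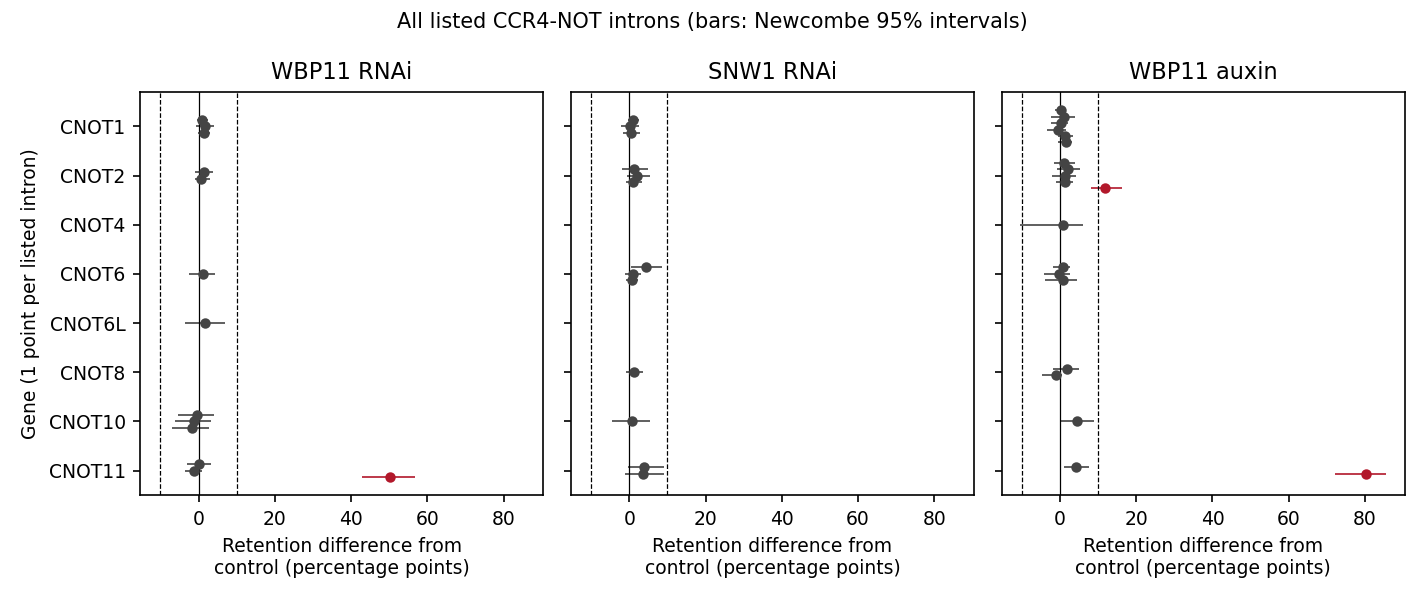
Difference in retention, depleted minus control, in percentage points (x axis) for each listed intron of the 8 genes with a row (y axis), in the 3 comparisons, with Newcombe 95% intervals as bars and dashed lines at 10 points either side of 0. CNOT11 intron 6 lies at 50.1 and 80.4 points in the WBP11 panels and CNOT2 intron 13 at 11.9 points after WBP11 auxin (red), and all other points lie between -1.78 and 4.59.

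The spliced reads at CNOT11 intron 6 are part of its retention ratio, so their values describe that change further and do not support it. The control had 244 reads spliced at intron 6 and 334 at intron 4, so intron 6 stood at 73.1% (61.7 to 86.4) of intron 4. After WBP11 RNAi the counts were 100 and 349, which is 28.7% (22.7 to 35.9). In the auxin control they were 211 and 296, or 71.3% (59.5 to 85.3), and in WBP11 auxin 10 and 275, or 3.64% (1.72 to 6.79).

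Within CNOT11, then, the 2 controls had close ratios and both WBP11-depleted libraries had lower ones, while the spliced reads at intron 4 went from 334 to 349 and from 296 to 275. These counts are not scaled between libraries. Over all listed introns the totals went from 3146434 to 2987572 for WBP11 RNAi and from 4276828 to 4927556 in the auxin pair. Intron 4 was not listed for SNW1 RNAi. Against intron 1, intron 6 stood at 155% (127 to 191) in the control, 52.9% (41.1 to 67.8) after WBP11 RNAi and 133% (105 to 169) after SNW1 RNAi, and the last of these intervals overlapped that of the control.

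**Figure D2:**
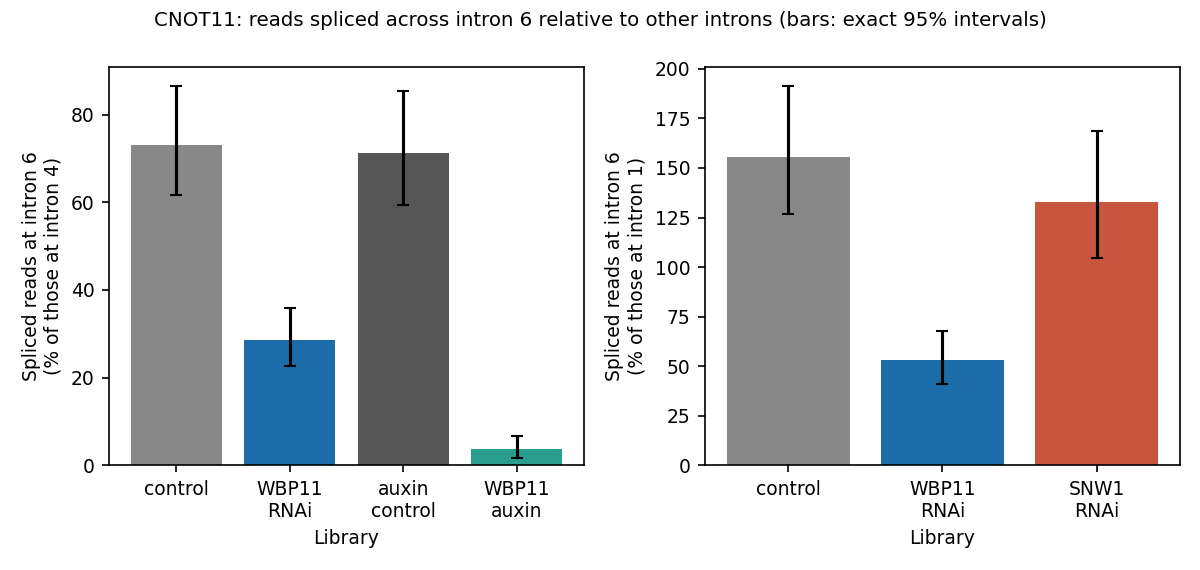
Reads spliced at CNOT11 intron 6 as a percent of those at intron 4 (left, 4 libraries) and at intron 1 (right, 3 libraries), from 0, with exact 95% intervals from the 2 counts. The WBP11 RNAi bar is at 28.7% and the WBP11 auxin bar at 3.64% of intron 4, against 73.1% and 71.3% in their controls, and the SNW1 RNAi bar is at 133% of intron 1 against 155% in the control.

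The other listed CNOT11 introns stayed within 10 points. Intron 4 (1629 bp) was retained at 2.50% in the control and 1.21% after WBP11 RNAi, and at 1.80% in the auxin control and 5.93% in WBP11 auxin. The auxin difference at intron 4 was 4.13 points (1.02 to 7.60), with an interval above 0. Intron 1 (4312 bp) was at 1.19% in the control, 1.39% after WBP11 RNAi and 4.99% after SNW1 RNAi, a difference of 3.79 points (-0.316 to 9.03) for SNW1 RNAi. Warnings of uneven coverage stood at intron 1 in WBP11 RNAi and SNW1 RNAi, and at intron 4 in the control and the auxin control.

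CNOT2, a structural subunit that pairs with CNOT3, rose at intron 13 in the auxin pair. That intron was listed in all 3 tables. It had a retention of 0.333% (0.0589 to 1.86) in the control, 1.08% (0.358 to 3.20) after WBP11 RNAi and 1.22% (0.409 to 3.57) after SNW1 RNAi. In the auxin control it was listed at 0% (up to 1.73) on 218 spliced reads and no intron depth, and in WBP11 auxin at 11.9% (8.68 to 16.1) on a depth of 34.6 and 256 spliced reads.

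The auxin difference at CNOT2 intron 13 was 11.9 points (8.25 to 16.1), just inside the call. The 3 libraries of the RNAi tables did not separate there, with differences of 0.746 points (-0.945 to 2.89) for WBP11 RNAi and 0.884 points (-0.847 to 3.25) for SNW1 RNAi. WBP11 auxin stood 10.8 points (6.97 to 15.1) above WBP11 RNAi at this intron. Unlike at CNOT11 intron 6, its spliced reads were not lower in WBP11 auxin, 256 against 218. As a percent of the reads at the 3284 bp intron 12 just before it, they were at 84.2% (71.0 to 99.8) in WBP11 auxin and 112% (92.2 to 137) in the auxin control. Against introns 10 and 11 they were at 116% and 121% in WBP11 auxin and 135% and 147% in the auxin control. Against intron 5 they were at 134% and 135%, so the size of any difference depended on the intron used, and intron 12 gave the largest. The deposited name field calls this intron clean, but GENCODE release 29 holds a transcript, CNOT2-216, that retains it.

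The other 5 listed introns of CNOT2, of 102 to 10058 bp, had differences of 1.11 to 2.22 points in whichever table listed them. Each was under 1% in its control, so the listing rule fixed the direction of these differences. Intron 10 (929 bp), which overlaps an annotated exon, was in all 3 tables. It was retained at 0.545% in the control, 1.96% after WBP11 RNAi and 2.54% after SNW1 RNAi, and at 0.299% in the auxin control and 2.52% in WBP11 auxin. It was higher than its control in each table by at most 2.22 points, and each interval held 0.

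**Figure D3:**
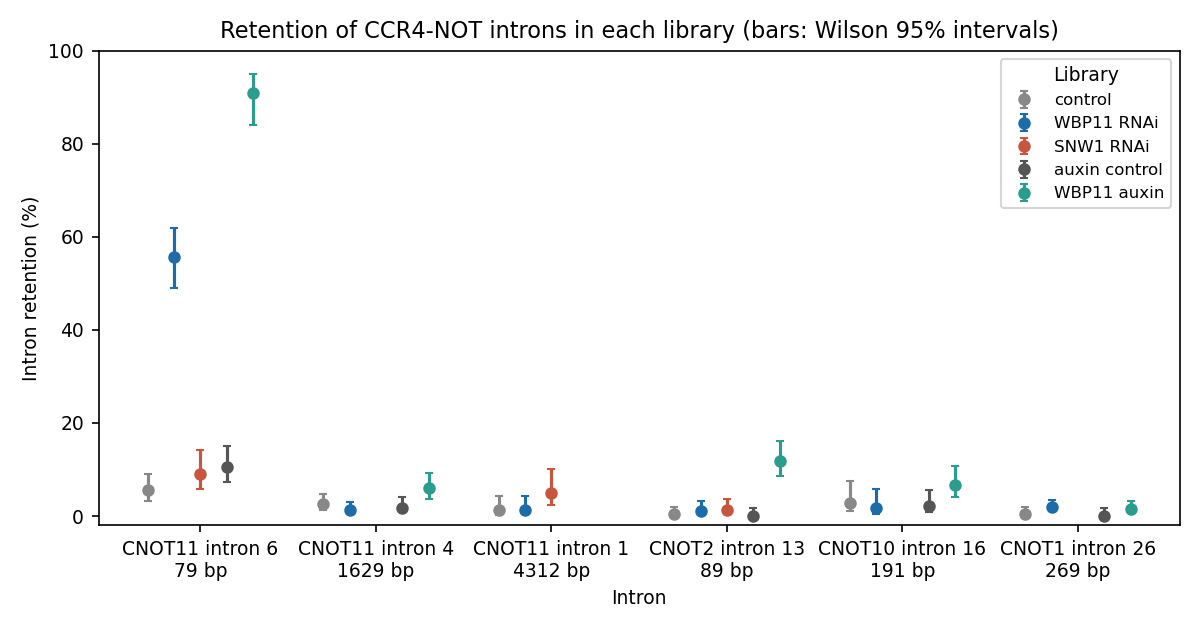
Retention in percent (y axis) of 6 CCR4-NOT introns (x axis, with length) in each library that lists them, with Wilson 95% intervals as bars. CNOT11 intron 6 is at 55.6% in WBP11 RNAi and 90.9% in WBP11 auxin and at or under 10.5% in the other 3 libraries, while the other 5 introns stay at or under 11.9% throughout.

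CNOT1, the scaffold that every other subunit binds directly or through a partner, had 8 listed introns of 48, and none was called. After WBP11 RNAi its 3 listed introns were at 0.0424% to 0.510% in the control and 1.01% to 1.98% in the depleted library. All were under 1% in the control, so the listing rule fixed the direction of these differences. The largest of these differences was 1.55 points (-0.577 to 4.11), at the 92 bp intron 32. After SNW1 RNAi, 3 introns differed by 0.253 to 1.0 points, and in the auxin pair 6 introns differed by -0.521 to 1.47 points. The 3 listed for SNW1 RNAi were likewise under 1% in the control. In the auxin pair the listing rule fixed the direction at all but intron 42, the only one over 1% in both libraries. Intron 37, 97 bp long, was at 0.886% in the auxin control and 1.07% in WBP11 auxin, so not every listed short intron of these genes was called.

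Among the nuclease subunits no intron was called. CNOT6, a deadenylase of the exonuclease-endonuclease-phosphatase family, had 5 listed introns. Its intron 8 (1076 bp) was retained at 1.70% (0.573 to 4.96) in the control, 2.78% (1.30 to 5.83) after WBP11 RNAi and 6.18% (3.74 to 10.1) after SNW1 RNAi. The SNW1 difference of 4.48 points (0.407 to 8.52) was the largest of that comparison and its only one whose interval lay above 0. In the SNW1 RNAi library that intron carried a warning of uneven coverage.

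The other CNOT6 introns differed by -0.166 to 1.05 points. CNOT6L, the close relative of CNOT6, had 1 listed intron, its last (5523 bp), at 0.284% in the control and 1.88% after WBP11 RNAi. CNOT8, a deadenylase of the DEDD family like CNOT7, had 1 intron listed for SNW1 RNAi, at 0.172% in the control and 1.34% after depletion. Its 2 introns in the auxin pair went in different directions, with differences of 1.95 points (-1.71 to 4.90) at intron 5 and -0.945 points (-4.60 to 0.654) at intron 6. At CNOT6L and at each CNOT8 intron 1 of the 2 libraries was under 1%, so the listing rule fixed the direction.

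CNOT10, the partner of CNOT11, had 3 listed introns near the end of the gene and none was called. In the WBP11 RNAi table all 3 lay below the control, with differences of -1.78 to -0.491 points and intervals that held 0. The -1.78 was at intron 17, which was at 0.363% after WBP11 RNAi, so the listing rule fixed its direction. The 191 bp intron 16 was at 2.89% (1.06 to 7.60) in the control, 1.69% (0.478 to 5.77) after WBP11 RNAi, 2.11% (0.781 to 5.55) in the auxin control and 6.70% (4.12 to 10.7) in WBP11 auxin. Its auxin difference of 4.59 points (0.288 to 8.82) was the largest under the call. WBP11 auxin had a warning of uneven coverage at this intron. CNOT4, a ubiquitin ligase that is bound less tightly than the other subunits, had 1 listed intron (6893 bp). It was deposited at 0.804% on 32 spliced reads and a depth of 0 in the auxin control. In WBP11 auxin it was at 1.69% on 91.

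The median difference over the members was 0.964 points after WBP11 RNAi, against 0.756 over all introns. It was 1.05 points after SNW1 RNAi, against 2.63, and 1.19 points in the auxin pair, against 1.45. Retention lay above control at 9 of 13, 13 of 13 and 17 of 20 members, and at 59.6%, 91.3% and 72.8% of all introns tested. The listing rule fixed the direction of every intron under 1% in its control or in its depleted library, among members and all introns alike. Nothing is therefore read from these directions, and the medians carry the same limit. The members started lower, with median control retentions of 1.19%, 0.568% and 0.845% against 2.20%, 1.24% and 2.13% over all. They were also longer, with median lengths of 929, 1076 and 786.5 bp against 406, 479 and 497 bp. The part of length and of starting level in these medians was not tested.

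Length went with the calls over all introns as well. In the auxin pair 39.2% of the 3666 tested introns of up to 100 bp rose, 11.2% of those of over 100 and up to 1000 bp and 5.34% of longer ones. Of the CCR4-NOT introns, 2 of the 3 up to 100 bp rose there (CNOT11 intron 6 and CNOT2 intron 13, but not CNOT1 intron 37), and 0 of the 17 longer ones. For WBP11 RNAi the shares of all introns were 16.4%, 10.6% and 2.55%, and 1 of 3 short members rose. For SNW1 RNAi they were 26.9%, 20.4% and 6.18%, and 0 of 2 short members rose. The reference transcripts of the 10 genes hold 153 introns, of which 10 are up to 100 bp, and 4 of these 10 were listed. The other 6 are in CNOT1, CNOT2, CNOT3 and CNOT6, and 1 of those in CNOT6, of 77 bp, is shorter than CNOT11 intron 6.

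**Figure D4:**
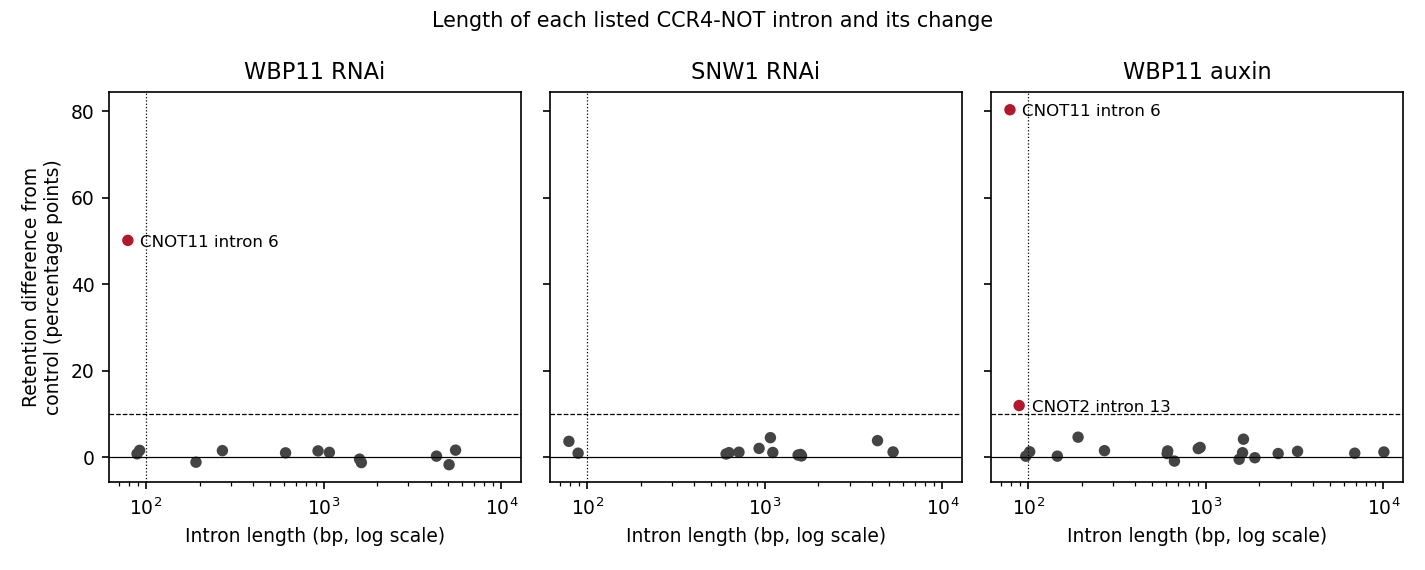
Difference in retention from control in percentage points (y axis) against intron length in bp on a log scale (x axis) for every listed CCR4-NOT intron in the 3 comparisons. The dashed line marks 10 points and the dotted line 100 bp. The points above the dashed line are CNOT11 intron 6 (79 bp) in both WBP11 panels and CNOT2 intron 13 (89 bp) in the auxin panel, and the SNW1 RNAi panel has none.

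Spliced reads at the listed introns were set relative to the total of each table's listed introns, as a rough measure for each gene. That total is part of a library and not its depth, and the listed introns differ between tables. CNOT1 stood at 142% of control (130 to 154) after WBP11 RNAi, 140% (127 to 154) after SNW1 RNAi and 129% (121 to 138) in WBP11 auxin. CNOT2 stood at 107%, 108% and 116% in the same order. CNOT6 stood at 138%, 186% and 144%, and CNOT8 at 139% after SNW1 RNAi and 185% in WBP11 auxin. On this measure CNOT1, CNOT6 and CNOT8 stood above control in each table that listed them, while the CNOT2 interval reached below 100% in both RNAi tables. For SNW1 RNAi the total itself went from 5527186 to 4170988. Unscaled, CNOT1 had 899 spliced reads there against 852, CNOT8 had 244 against 232 and CNOT6 had 980 against 700. The measure was not taken over all genes, so no rise of these mRNAs is read from it.

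CNOT11 was the member lowest on this measure. It stood at 91.4% of control (82.1 to 102) after WBP11 RNAi, 96.2% (82.4 to 112) after SNW1 RNAi and 48.8% (42.1 to 56.5) in WBP11 auxin, where intron 6 gave 10 of its 285 spliced reads. Fewer spliced reads at a retained intron are part of the retention itself, so this sum is no measure of CNOT11 RNA. CNOT10 stood at 108%, 143% and 111%, and CNOT6L at 122% after WBP11 RNAi. CNOT4, at 247% (163 to 382) in WBP11 auxin, rested on 32 control reads.

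The introns whose retention over the 5 libraries was nearest to that of CNOT11 intron 6 were in AP1G2, PCNXL3 and CPSF1. They were the closest by Euclidean distance among 8601 introns listed in all 3 tables and above the depth minimum. AP1G2 intron 13 of 21 (81 bp) was at 9.18% in the control, 65.1% after WBP11 RNAi, 14.3% after SNW1 RNAi, 13.1% in the auxin control and 84.3% in WBP11 auxin, a distance of 13.4 points. PCNXL3 intron 31 of 34 (80 bp) was at 13.7 points and CPSF1 intron 28 of 37 (82 bp) at 13.8 points. In the RNAi tables PCNXL3 was at 2.78% in the control, 53.8% after WBP11 RNAi and 19.3% after SNW1 RNAi. CPSF1 was at 5.18%, 55.9% and 20.5% in the same order. Both therefore rose after SNW1 RNAi too, unlike CNOT11 intron 6. In the auxin pair PCNXL3 went from 18.3% to 87.3% and CPSF1 from 17.6% to 87.6%. All 3 are within 3 bp of the length of CNOT11 intron 6, and the measure used the retention values alone.

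The neighbouring steps of mRNA decay were taken from 4 lists. Of the 25 partners and recruiters of CCR4-NOT, 14 to 17 genes had a listed intron. After WBP11 RNAi 0 of 27 introns were called. After SNW1 RNAi 2 of 42 rose, in SAMD4B, an RNA-binding recruiter, and ZFP36L2, which brings the complex to AU-rich mRNAs and went from 3.27% to 18.6%. In the auxin pair 0 of 35 rose and 1 was lower. The shares higher of 0%, 4.76% and 0% were under those of all introns, 9.07%, 16.6% and 13.8%. This was the last intron of SAMD4B, 207 bp and overlapping an annotated exon. It was at 22.2% in the control and 64.2% after SNW1 RNAi (difference 42.0 points, 33.5 to 49.7), and at 35.7% in the auxin control and 10.1% in WBP11 auxin (-25.7 points, -33.3 to -17.9).

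Among the 8 other deadenylases and poly(A)-binding genes, 3 of 16 introns rose after WBP11 RNAi, 4 of 28 after SNW1 RNAi and 2 of 28 in the auxin pair. These are 18.8%, 14.3% and 7.14%, against 9.07%, 16.6% and 13.8% of all introns. PAN2, the nuclease of the PAN2-PAN3 deadenylase, held all but 1 of these rises, and PABPC4 held the other (5.46% to 16.4% after SNW1 RNAi). PAN2 intron 9 of 25 (206 bp) was at 17.7% in the control, 43.1% after WBP11 RNAi and 40.7% after SNW1 RNAi, and went from 8.83% to 72.5% in the auxin pair. PAN2 intron 7 (207 bp) was at 31.2% in the control, 52.5% after WBP11 RNAi and 76.3% after SNW1 RNAi, and went from 32.1% to 62.6% in the auxin pair. PAN2 also had 1 intron lower in each RNAi table, intron 23 after WBP11 RNAi (-11.1 points, -29.2 to 7.14) and intron 6 after SNW1 RNAi (-10.3 points, -24.2 to 8.81), both with intervals that held 0. Intron 23 went the other way after SNW1 RNAi, from 62.7% to 93.7% (31.0 points, 14.5 to 41.6). The 93.7% rested on 2 spliced reads and carried a warning of low splicing. Of the PAN2 rises, that of intron 18 after WBP11 RNAi (11.6 points, -1.67 to 30.6) also had an interval that held 0. The depth plus spliced reads behind these PAN2 values were 21.1 to 35.8 in the depleted libraries. Warnings of uneven coverage stood at PAN2 intron 9 in WBP11 RNAi and in the auxin control, and at intron 18 in the control. Warnings of a minor isoform stood at PAN2 intron 7 in WBP11 RNAi and at PABPC4 in SNW1 RNAi.

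Decapping and 5′ decay genes had 3 of 45 introns higher and 1 lower after WBP11 RNAi, 6 of 50 higher after SNW1 RNAi and 13 of 47 higher in the auxin pair. The shares higher were 6.67%, 12% and 27.7%, against 9.07%, 16.6% and 13.8% of all introns, so the list stood above the share of all introns in the auxin pair only. The 13 were in EDC4, a decapping scaffold, XRN1, the cytoplasmic 5′ exonuclease, and XRN2, its nuclear relative, and the intervals of 3 of them, all in XRN1 (introns 6, 17 and 23), held 0. EDC4 intron 19 of 28 (84 bp) went from 0.786% to 30.4% after WBP11 RNAi and from 1.79% to 64.5% in the auxin pair, and was not called after SNW1 RNAi. EDC4 intron 15 (75 bp) went from 8.07% to 54.6% after SNW1 RNAi and from 4.71% to 22.2% in the auxin pair. EDC4 intron 17 (340 bp) went from 26.1% to 36.1% after WBP11 RNAi, with an interval of the difference that held 0 (-1.88 to 21.4 points). After SNW1 RNAi it stood at 69.9% (43.8 points, 31.9 to 53.9), with a warning of a minor isoform in that library. EDC4 introns 6, 20 and 21 rose after SNW1 RNAi as well. EDC4 intron 22 (108 bp) was the lower one, from 45.8% to 25.6% after WBP11 RNAi (-20.2 points, -29.1 to -10.9).

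In the same list XRN2 intron 5 of 29 (76 bp) went from 1.32% to 47.7% (46.4 points, 39.6 to 52.8) and its intron 25 (83 bp) from 0.0178% to 35.5% in the auxin pair. XRN1 intron 7 of 41 (84 bp) was listed at 0% on 14 spliced reads in the auxin control and at 36.2% in WBP11 auxin. XRN1 intron 23 (3487 bp) was at 2.03% in the control and 22.4% after WBP11 RNAi, and its intron 6 (637 bp) was at 0.768% in the control and 14.1% after SNW1 RNAi. The XRN1 values in the auxin control rested on 12 to 22 reads, and those of EDC4 and XRN2 on 130.1 to 462. XRN1 intron 7 in WBP11 auxin, intron 23 in WBP11 RNAi and intron 6 in SNW1 RNAi each carried a warning of uneven coverage.

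Exosome and SKI genes, which degrade RNA from the 3′ end, had 1 of 21 introns higher after WBP11 RNAi, 1 of 38 after SNW1 RNAi and 3 of 34 in the auxin pair, where 1 was lower. The shares higher were 4.76%, 2.63% and 8.82%, each under that of all introns (9.07%, 16.6% and 13.8%). TTC37, a SKI subunit, had an 85 bp intron, 15 of 43, that went from 0.0337% to 10.4% after WBP11 RNAi and from 1.13% to 40.5% in the auxin pair (39.3 points, 24.8 to 51.6). TTC37 intron 24, also 85 bp, went from 21.5% to 38.9% in the auxin pair (17.4 points, -4.17 to 34.7), and TTC37 intron 28 was lower there (-11.4 points, -28.5 to 0.972), both with intervals that held 0. EXOSC10, a nuclear exosome nuclease, went from 10.1% to 41.4% at intron 15 of 24 (157 bp) after SNW1 RNAi, and EXOSC2 from 12.5% to 22.9% at intron 6 in the auxin pair.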

How the data were processed

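The 3 deposited tables each compare 1 depleted library with 1 control. Per the file headers they come from IRFinder run on STAR alignments. The submitters' processing notes name hg38, RSEM and bedtools. For versions, filters and the annotation, the sources used here give nothing. The retention ratio is a fraction as deposited, the intron depth a coverage signal as deposited, averaged over the bases the authors' tool measured, and spliced reads a count as deposited. None was scaled between libraries. Warnings are deposited as words. Depth over depth plus spliced reads came within 0.1 points of the deposited ratio for 24 of 26, 25 of 26 and 32 of 40 member values, and the deposited one was used. The largest gap was 0.804 points, at CNOT4, where the control ratio was above 0 at a deposited depth of 0. CNOT6L, CNOT1 intron 33, TTC37 intron 15 after WBP11 RNAi and XRN2 intron 25 also had such a control value.

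Intron numbers and regions come from GENCODE release 29, by exact coordinates, on the transcript with the longest coding sequence. Coordinates count from 1. Wilson and Newcombe intervals took depth plus spliced reads for the number of reads observed, and ratios of spliced reads used exact binomial intervals. Reads lack molecular identifiers. The depth minimum left out 561, 711 and 643 introns of the tables and no member. Calls and intervals were tried on simulated data that held counting error alone, which cannot show how far libraries vary. No test was run, since each group had 1 library. The members, the lists, the call and the depth minimum were chosen with earlier results of these data known. Named genes were the members, the list genes with a called intron, and the 3 introns most like CNOT11 intron 6. Symbols are those of the tables. Python 3.11.15, pandas 2.3.3, numpy 2.4.6, scipy 1.17.1 and matplotlib 3.10.9 were used.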

Additional observations from a re-analysis of the deposited data

How the results depend on the processing

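No paired analysis was possible because each group had 1 library. Over 48 other settings of the counts of members called, 45 gave the same count within 1.5 times. Many of these concern counts of 0, namely all counts lower and the count higher for SNW1 RNAi. No member lay below -1.78 points and none above 4.48 after SNW1 RNAi, so the call settings used could not move those counts. All members met the depth minimum, so leaving it out could not change any count. The introns that rose had no warning and had intervals above 0. Leaving out introns with a warning, or asking that the interval leave out 0, could therefore not change the counts higher. Without introns over an annotated exon, the count higher went from 1 to 0 for WBP11 RNAi and from 2 to 1 for WBP11 auxin, since CNOT11 intron 6 is such an intron. With a call at 20 points, 1 member was higher for WBP11 auxin, since CNOT2 intron 13 changed by less. The median over members moved by less than the median half-width of the members' intervals in 17 of 18 settings. Centred on the median of all introns tested, it was -1.58 points for SNW1 RNAi in place of 1.05, -0.258 for WBP11 auxin in place of 1.19 and 0.208 for WBP11 RNAi in place of 0.964, so the sign turned for SNW1 RNAi and WBP11 auxin. Differences at CNOT11 intron 6 and CNOT2 intron 13 moved by less than the half-width of their intervals in all 12 settings, a pseudocount of 1 and exactly spliced reads in each table. Depth limits most the introns of CNOT4 and CNOT6L, with 32 and 78 control reads.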
